A study of Mus musculus with 4 samples.

Results

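In DN4 thymocytes of mice in which Ikaros could be deleted, both interleukin-12 receptor chain genes were lower (1.66-fold and 1.40-fold) and the gene of the shared signalling chain gp130 was higher (1.39-fold) than in control mice. These differences passed an adjusted test among probe sets with 1 gene symbol and not among all probe sets. Both the genes and the test that they passed were chosen with earlier results of these data known. The genes compared were 10, namely the interleukin-12 receptor chains Il12rb1 and Il12rb2, the signal transducer Stat4, and the receptor chains Il6st, Il6ra, Il7r, Il2rg, Il4ra, Ifngr1 and Ifngr2. Of these, 9 had a probe set with exactly 1 gene symbol in the platform annotation, out of 19938 genes with such a probe set. Each of the 9 had 1 such probe set. Il2rg, which encodes the common gamma chain, had none and was not analysed here.

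DN4 cells are the last of the immature thymocytes without CD4 and CD8, and were sorted from 4 mice with 1 array per mouse. The 2 Cre+ mice (129 and 135) were Ikf/f Rosa26-CreERT2+ and the 2 Cre- mice (131 and 137) were Ikf/f, per the array titles and the series' design text. The treatment label names the Cre allele on all 4 arrays, so the groups rest on the titles. Both groups carried floxed alleles of Ikzf1, which encodes the transcription factor Ikaros, and both were given a daily tamoxifen injection of 50 mg/kg over 4 days, with analysis 24 h later. CreERT2 is a Cre recombinase that tamoxifen activates, and Rosa26 is a broadly active locus, so deletion was not limited to thymocytes by its promoter. No source used here gives the ages of the mice.

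Cytokine receptors of this class have no kinase of their own. Binding of the cytokine brings together chains that carry Janus kinases, which phosphorylate the chains and then STAT proteins, and these enter the nucleus and act on transcription. The interleukin-12 receptor pairs IL-12R beta 1 with IL-12R beta 2 and signals mainly through STAT4 in natural killer cells and T helper 1 cells. The beta 1 chain also serves interleukin-23. Chains in other receptors include gp130 (Il6st) for interleukin-6 and its relatives, the interleukin-7 receptor alpha chain (Il7r), which early thymocytes need for survival, and the paired interferon gamma receptor chains.

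Promoter sequence from RefSeq (build GRCm38.p6) is shown for 1 chain that was lower in Cre+ cells (Il12rb2), 1 that was higher (Il6st) and the chain with the smallest difference (Ifngr2). Each stretch ends just before the first annotated base of the gene and reads 5′ to 3′ on the gene's strand, and capitals mark GGGAA or its reverse complement TTCCC, the core of known Ikaros binding sites.
Il12rb2, chr6:67376294-67376438, minus strand: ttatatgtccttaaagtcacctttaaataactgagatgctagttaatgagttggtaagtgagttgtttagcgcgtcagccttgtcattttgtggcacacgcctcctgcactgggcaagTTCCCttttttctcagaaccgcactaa
Il6st, chr13:112463820-112464069, plus strand: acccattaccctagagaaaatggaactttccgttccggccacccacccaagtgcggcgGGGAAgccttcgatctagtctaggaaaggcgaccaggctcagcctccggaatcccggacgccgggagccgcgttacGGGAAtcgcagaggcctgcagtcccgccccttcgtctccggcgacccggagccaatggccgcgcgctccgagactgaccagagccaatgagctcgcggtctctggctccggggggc
Ifngr2, chr16:91546809-91547058, plus strand: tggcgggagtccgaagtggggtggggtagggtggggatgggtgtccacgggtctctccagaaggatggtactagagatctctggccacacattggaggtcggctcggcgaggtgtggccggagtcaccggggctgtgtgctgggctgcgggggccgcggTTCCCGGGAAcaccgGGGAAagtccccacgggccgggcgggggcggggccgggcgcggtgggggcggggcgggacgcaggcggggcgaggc
There was 1 match in the 145 bases upstream of Il12rb2, and there were 2 in the 250 bases upstream of Il6st and 3 in the 250 bases upstream of Ifngr2. In the full windows of 300 bases around each start, 8 of 10 windows of the genes compared held GGGAA on either strand, and the motif was in 62.7% of 32851 windows of all genes. Stat4 had 2 windows, 1 of them without a match, and Ifngr1 had a window without one. TTCNNNGAA, the palindromic motif of many STAT proteins, was in 2 of the 10 windows (Il12rb2 and Il7r) and in 8.30% of all windows. There was no window for Il12rb1. A match of letters is a description and no measured binding.

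The deposited values are log2 expression values, and every difference below is Cre+ minus Cre- on that scale. They lay between 3.14 and 14.4, with array medians from 6.85 to 6.88, and the number of arrays limits their precision. Differences were tested with limma. A first call adjusted p-values over all 35556 probe sets, in which 0% of probe sets and 0 of the 9 genes passed an adjusted p of 0.05. A second call used the 21789 probe sets with 1 gene symbol, of which 1.22% passed (0.285% lower and 0.936% higher in Cre+ cells). In this test 3 of the 9 genes passed, Il12rb1 and Il12rb2 lower and Il6st higher. At an unadjusted p under 0.05 in limma there were 6 of the 9 genes, 5 of them lower in Cre+ cells, against 6.86% of all genes (2.74% lower) and 6.63% of all probe sets. As the 9 genes were chosen with earlier results of these data known, such shares are given as a description. Ikzf1 itself differed by -0.07 (SE 0.04), and where its probes lie relative to the floxed part was not analysed here.

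Il12rb1, which encodes the receptor chain shared by interleukin-12 and interleukin-23, had log2 values of 8.15 and 7.86 in Cre+ mice 129 and 135, against 8.61 and 8.87 in Cre- mice 131 and 137. Both Cre+ mice lay below both Cre- mice, with a gap of 0.46 between the groups. The means were 8.01 ± 0.20 in Cre+ and 8.74 ± 0.18 in Cre- mice (SD, n = 2 each). The difference was -0.73 (SE 0.15), 1.66-fold lower in Cre+ cells, with an adjusted p = 0.0420 from limma over probe sets with 1 gene symbol and 0.387 over all probe sets.

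Il12rb2, the chain that couples the receptor to STAT4, had values of 10.21 and 10.26 in Cre+ mice, against 10.62 and 10.82 in Cre- mice. The Cre+ mice were close to each other and the groups were apart by 0.36. The means were 10.23 ± 0.04 in Cre+ and 10.72 ± 0.14 in Cre- mice (SD, n = 2 each). The difference was -0.49 (SE 0.08), 1.40-fold lower in Cre+ cells, with an adjusted p = 0.0269 from limma over probe sets with 1 gene symbol and 0.321 over all probe sets. Both calls depended on the variance model: without an intensity trend the adjusted p was 0.112 for Il12rb1 and 0.117 for Il12rb2. Leaving out mouse 135 also ended the Il12rb1 call (-0.59, adjusted p = 0.116), as did leaving out mouse 137 (-0.60, adjusted p = 0.0503). Leaving out mouse 129 ended the Il12rb2 call (-0.46, adjusted p = 0.0685).

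Stat4, which carries the interleukin-12 signal to the nucleus, had values of 9.73 and 9.78 in Cre+ mice, against 9.96 and 9.90 in Cre- mice. The groups did not overlap, but the gap was 0.12. The difference was -0.17 (SE 0.07), 1.13-fold lower, and did not pass, with an adjusted p = 0.476 from limma over probe sets with 1 gene symbol.

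**Figure D1:**
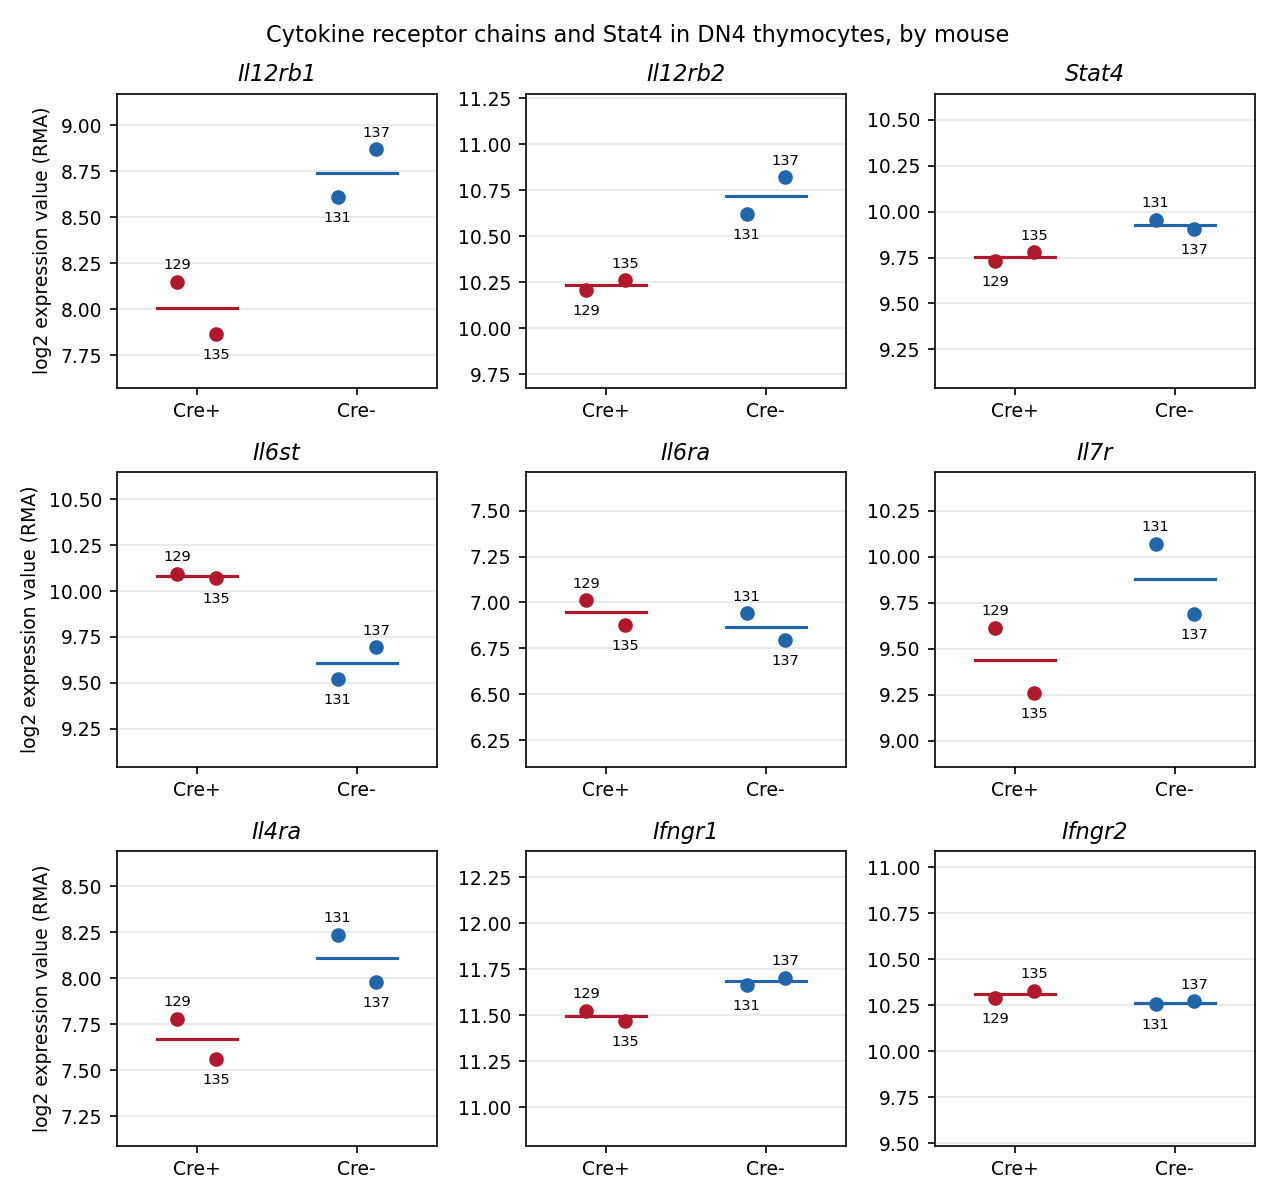
Log2 expression values (y axis, same span in every panel) of the 9 genes in each mouse, with Cre+ mice 129 and 135 in red on the left, Cre- mice 131 and 137 in blue on the right, and a bar at each group's mean. Il12rb1 and Il12rb2 were lower and Il6st higher in both Cre+ mice, while for Il6ra the groups overlapped.

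Il6st, which encodes gp130, the signalling chain of the interleukin-6 family, went the other way. Its values were 10.09 and 10.07 in Cre+ mice, against 9.52 and 9.69 in Cre- mice. The Cre+ mice agreed closely and both lay above both Cre- mice, with a gap of 0.37. The means were 10.08 ± 0.02 in Cre+ and 9.61 ± 0.12 in Cre- mice (SD, n = 2 each). The difference was 0.47 (SE 0.08), 1.39-fold higher in Cre+ cells, with an adjusted p = 0.0361 from limma over probe sets with 1 gene symbol and 0.327 over all probe sets. Fitting no intensity trend ended this call (adjusted p = 0.103), and so did leaving out mouse 129 (0.46, adjusted p = 0.138) or mouse 135 (0.49, adjusted p = 0.0742).

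Il6ra, the chain that binds interleukin-6 itself and pairs with gp130, had values of 7.01 and 6.88 in Cre+ mice, against 6.94 and 6.79 in Cre- mice. These values overlapped between the groups and lay near the array medians. The difference was 0.08, with a 95% interval from -0.21 to 0.37, so a change as large as a fall of 0.21 or a rise of 0.37 lies within the error.

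Il7r, the interleukin-7 receptor alpha chain, had values of 9.62 and 9.26 in Cre+ mice, against 10.07 and 9.69 in Cre- mice. The mice of each group lay far apart, by 0.36 in Cre+ and 0.38 in Cre- mice, and the gap between the groups was 0.07. The difference was -0.44 (SE 0.18), with a 95% interval from -0.90 to 0.01 and an adjusted p = 0.321 from limma over probe sets with 1 gene symbol. It was -0.25 without mouse 131 and -0.63 without mouse 137. Either step leaves 1 Cre- mouse, of a single sex, against Cre+ mice of both sexes (sexes are given below).

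Il4ra, the interleukin-4 receptor alpha chain, which also pairs with the common gamma chain, had values of 7.78 and 7.56 in Cre+ mice, against 8.24 and 7.98 in Cre- mice. Both Cre+ mice lay below both Cre- mice, with a gap of 0.20. The difference was -0.44 (SE 0.14) and did not pass, with an adjusted p = 0.207 from limma over probe sets with 1 gene symbol.

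The mice within a group differed in sex as read from their transcripts, mice 129 and 131 being female and mice 135 and 137 male. Within the female pair Il7r differed by -0.46 and within the male pair by -0.43, and Il4ra by -0.46 and -0.42. With sex as a term in the fit both passed over probe sets with 1 gene symbol, with an adjusted p = 0.0154 for Il7r and 0.0340 for Il4ra from limma. Over all probe sets neither passed with this term (adjusted p = 0.311 and 0.388 from limma). The term leaves fewer residual degrees of freedom than the main fit. With it, 5 of the 9 genes passed over probe sets with 1 gene symbol, against 2.59% of those probe sets. Il12rb1 differed by -0.46 in the female pair and -1.01 in the male pair, Il12rb2 by -0.42 and -0.56, and Il6st by 0.57 and 0.37. All 9 genes had the same sign in both pairs, 6 lower and 3 higher in Cre+ mice.

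Ifngr1, the ligand-binding chain of the interferon gamma receptor, had values of 11.53 and 11.47 in Cre+ mice, against 11.66 and 11.70 in Cre- mice. The groups were apart by 0.14. The difference was -0.19 (SE 0.04), 1.14-fold lower, and did not pass, with an adjusted p = 0.120 from limma over probe sets with 1 gene symbol. Ifngr2, the chain that joins it on ligand binding and brings in JAK2, had values of 10.29 and 10.33 in Cre+ mice, against 10.26 and 10.27 in Cre- mice. Its difference was 0.05, with a 95% interval from -0.10 to 0.19, and the gap between the groups was 0.02. The 2 chains of this receptor thus had differences of opposite sign, and the difference between them was not tested.

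**Figure D2:**
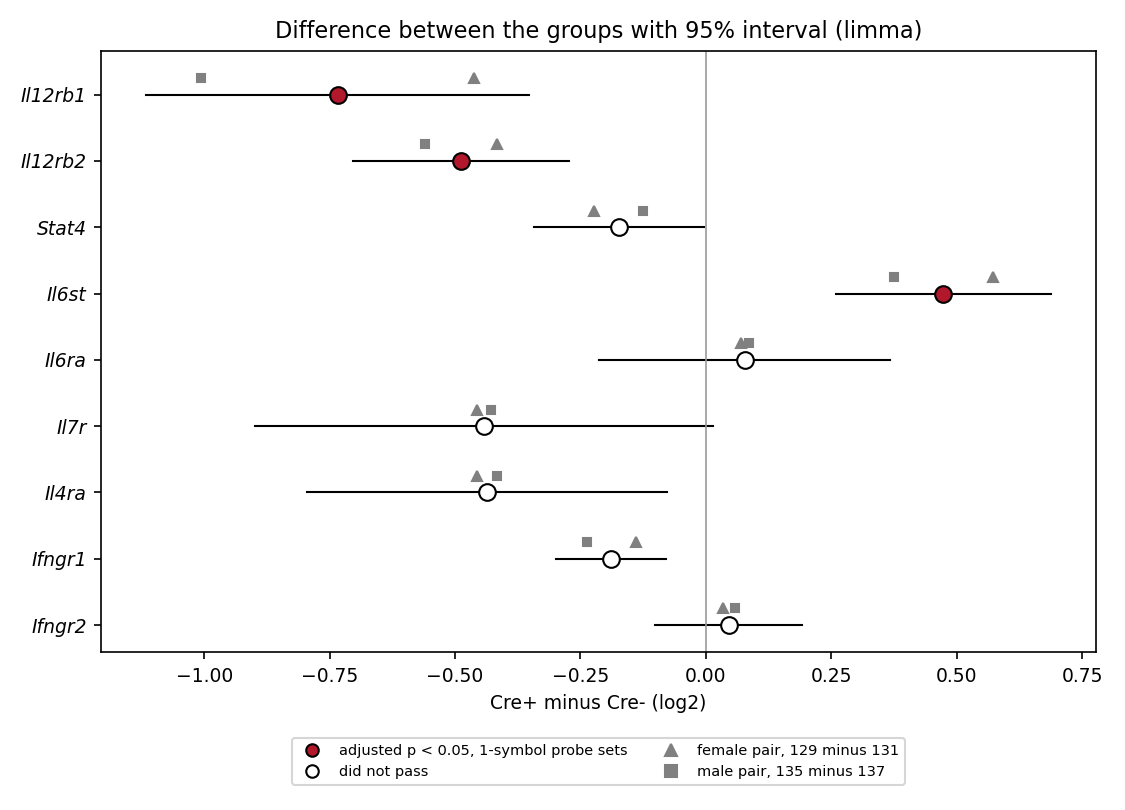
Cre+ minus Cre- difference on the log2 scale (x axis) for each of the 9 genes, with the 95% interval from limma over all probe sets. Filled circles passed an adjusted p of 0.05 in the separate fit over probe sets with 1 gene symbol. Grey triangles and squares give the female pair (129 minus 131) and the male pair (135 minus 137). Il12rb1 and Il12rb2 lie at -0.73 and -0.49, and Il6st at 0.47.

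Groups did not overlap for 8 of the 9 genes, 6 of them lower and 2 higher in Cre+ mice, against 36.4% of all genes (20.3% lower and 16.1% higher). With 2 mice in each group such separation is common, and Ifngr2 showed it with a difference of 0.05. The median difference of the 9 genes was -0.19, against -0.01 over all genes, and their median absolute difference was 0.44 against 0.06. Because the 9 genes were chosen with earlier results of these data known, these comparisons with all genes are a description and no test.

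**Figure D3:**
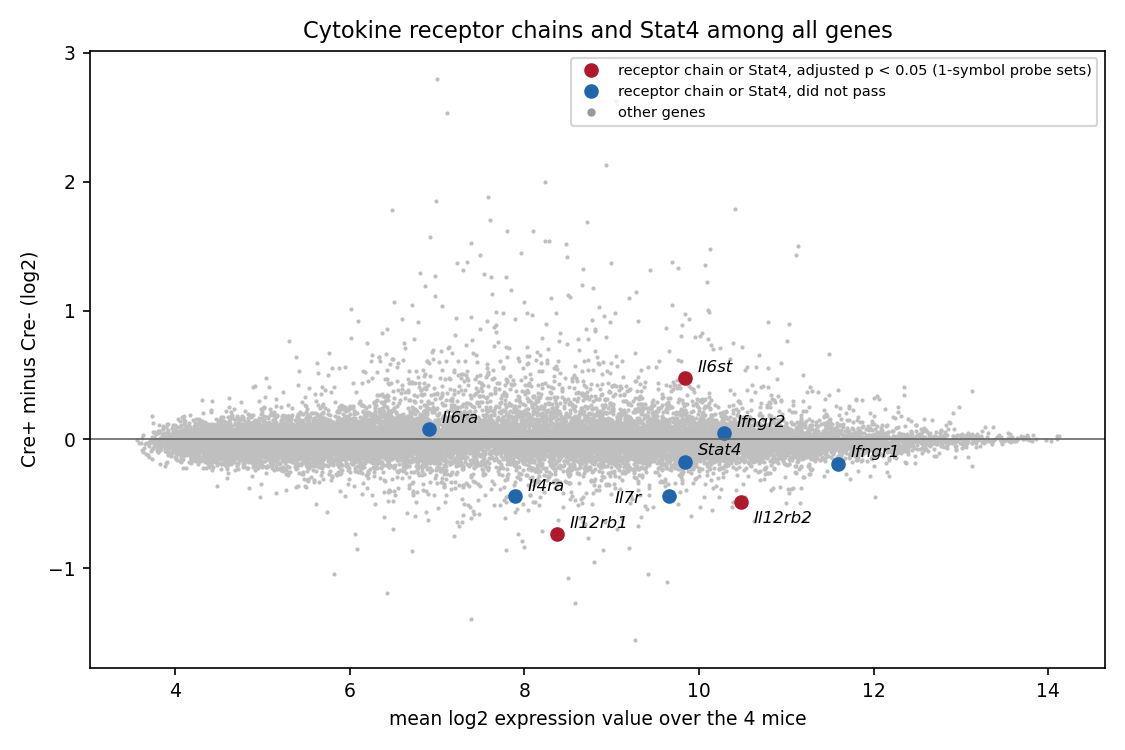
Cre+ minus Cre- difference (y axis, log2) against the mean log2 value over the 4 mice (x axis) for all 19938 genes, with the 9 genes named. Il12rb1, Il12rb2, Il4ra and Il7r lie below most genes and Il6st above them, while Il6ra and Ifngr2 lie within the bulk.

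The interleukin-12 receptor chains were then set against the chains of gp130, interleukin-7 and interferon gamma receptors, each gene taken relative to its own mean in the Cre- mice. The mean over Il12rb1 and Il12rb2 was -0.55 in mouse 129 and -0.67 in mouse 135, against -0.11 and 0.11 in Cre- mice 131 and 137. The mean over Il6st, Il7r, Ifngr1 and Ifngr2 was 0.02 and -0.08 in Cre+ mice 129 and 135, against 0.02 and -0.02 in Cre- mice 131 and 137. The gap between both sets of chains was thus -0.57 and -0.59 for Cre+, against -0.13 and 0.13 for Cre-. Its mean of -0.58 has no p, since the genes were chosen with earlier results known. The mean near 0 of the second set joins a higher Il6st with lower means of Il7r and Ifngr1, so it does not describe each of its genes.

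Other receptor chains of the same families were compared next. Of 32 further receptor genes measured, 23 had lower and 9 higher means in Cre+ cells, with a median of -0.03 and a largest difference of -0.50, and 0 passed limma over probe sets with 1 gene symbol. At an unadjusted p under 0.05 in limma there were 4 of the 32, all lower, against 2.74% of all genes that were lower at this p. The list of interferon and interleukin-10 family receptors had lower means in 7 of 7 genes (median -0.13), of which Ifnlr1 and Il22ra1 differed by -0.02 each. Over all genes the median difference was -0.01.

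Among these receptors, Lifr, which pairs with gp130 to bind leukaemia inhibitory factor, had values of 5.88 and 6.19 in Cre+ mice, against 6.44 and 6.64 in Cre- mice. It differed by -0.50 (SE 0.15), and the oncostatin M receptor gene Osmr, another partner of gp130, by -0.21 (SE 0.09), both opposite in sign to Il6st. That list had 5 measured genes with a median of -0.00. Ifnar2, a chain of the type I interferon receptor, differed by -0.19 (SE 0.05) and Il10rb, a chain shared by interleukin-10 and lambda interferons, by -0.37 (SE 0.14). None of these 4 genes passed limma over probe sets with 1 gene symbol, with adjusted p-values between 0.139 and 0.470.

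The 7 other genes of common gamma chain and interleukin-7 family receptors had a median of 0.03, with 4 higher and 3 lower. Il2ra, the interleukin-2 receptor alpha chain that marks the DN2 and DN3 stages, had values of 11.07 and 10.71 in Cre+ mice, against 11.58 and 10.96 in Cre- mice, which overlap. Il2rb, the interleukin-2 and interleukin-15 receptor beta chain, differed by 0.21 (SE 0.09). In the list of common beta chain, growth factor and interleukin-1 family receptors (13 genes, median -0.03) the interleukin-18 receptor gene Il18r1 differed by -0.18 (SE 0.07) at values between 4.44 and 4.67, and Csf2ra by 0.10 (SE 0.09).

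Downstream of the receptors, 8 Janus kinase and other STAT genes were measured, 5 with higher and 3 with lower means (median 0.02), and 0 passed. Stat3, the main transducer of gp130 signals, had values of 10.41 and 10.43 in Cre+ mice, against 10.18 and 10.23 in Cre- mice. This difference of 0.21 (SE 0.06) had the sign of that of Il6st and did not pass, with an adjusted p = 0.218 from limma over probe sets with 1 gene symbol. Stat5b, which interleukin-7 activates, differed by 0.10 (SE 0.05).

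Of 15 negative regulators of cytokine signalling, 12 had higher and 3 lower means (median 0.08), and 0 passed. Socs2 was at 9.02 and 8.03 in Cre+ mice, against 7.13 and 6.16 in Cre- mice, a difference of 1.88 (SE 0.45), with an adjusted p = 0.0537 from limma over probe sets with 1 gene symbol. Its other probe set differed by 0.44. Socs3, a feedback inhibitor that binds gp130, had 2 probe sets, which differed by 0.44 (SE 0.15) and 0.05.

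Genes known to respond to these cytokines in T and natural killer cells were compared as 2 lists. Of 15 measured genes of the interleukin-12 and STAT4 response, 7 had higher and 8 lower means (median -0.03), and 0 passed. Runx3, a transcription factor of CD8 and T helper 1 cells, had values of 8.77 and 8.66 in Cre+ mice, against 9.19 and 9.63 in Cre- mice. It differed by -0.69 (SE 0.16), with an adjusted p = 0.0644 from limma over probe sets with 1 gene symbol, and Ets1 by 0.18 (SE 0.06).

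Of 12 measured genes of the interleukin-7 and STAT5 response, 8 had higher and 4 lower means (median 0.05), and 0 passed. The cyclin gene Ccnd2 differed by 0.13 (SE 0.07) and the survival gene Mcl1 by 0.13 (SE 0.08), against -0.44 for Il7r. Of 17 cytokine ligand genes, 11 had higher and 6 lower means (median 0.04), and 0 passed. Il12a, the p35 subunit of interleukin-12, differed by 0.48 (SE 0.19) and Il6 by -0.16 (SE 0.07).

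**Figure D4:**
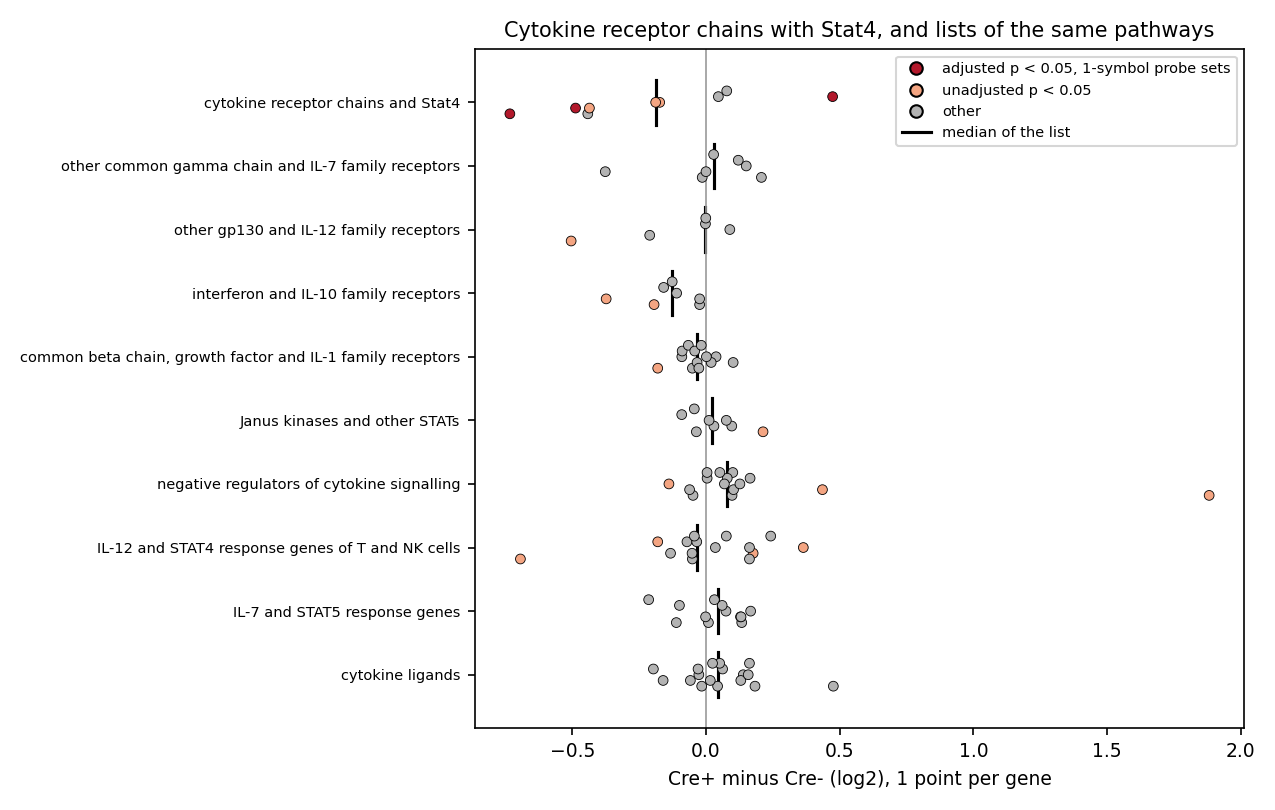
Cre+ minus Cre- difference (x axis, log2) of each gene, by list, with the 9 genes in the top row and a black bar at each list's median. Dark red points passed an adjusted p of 0.05 over probe sets with 1 gene symbol, which 3 genes of the top row and 0 genes of the lists below it did.

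The genes whose 4 values were most like those of a gene compared, by Euclidean distance after each gene's own mean was subtracted, were found among all 19938 genes. For Il12rb1 these were Klhl4 (distance 0.13) and the leukotriene receptor gene Cysltr2 (0.17), which differed by -0.73 and -0.70. For Il12rb2 they were P2ry10b (0.04) and Wdr78 (0.05), with -0.47 and -0.50. For Stat4 they were D830039M14Rik and Rnf183, with distances of 0.01 each and differences of -0.17 each. The likeness is over 4 mice and is given as a description.

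Markers of other cells were examined because natural killer cells and mature T cells also express Il12rb2 and Stat4. In a sorted population, fewer cells of a type and less RNA per cell cannot be told apart. The T lineage list had high levels, with Thy1 between 13.12 and 13.23. Of its 9 measured genes, 7 had higher and 2 lower means, and the mean log2 level was 11.46 and 11.41 in Cre+ mice, against 11.28 and 11.29 in Cre- mice. Passing over probe sets with 1 gene symbol were 4, all higher, against 0.936% of those probe sets that passed as higher. The 4 were the recombinase gene Rag1 by 0.38 (SE 0.08) and the CD3 chain genes Cd3e by 0.25 (SE 0.04), Cd3d by 0.66 (SE 0.08) and Cd3g by 0.37 (SE 0.05). The coreceptor gene Cd8a differed by -0.61 (SE 0.21) and did not pass. Of the natural killer markers, Ncr1 was between 4.74 and 4.77, Klrb1c between 4.05 and 4.20 and Klrd1 between 4.53 and 4.62. The granzyme gene Gzma of the same list was bright, at 12.31 and 12.25 in Cre+ mice against 12.48 and 12.46 in Cre- mice, a difference of -0.19 (SE 0.03) that did not pass (adjusted p = 0.0506 from limma over probe sets with 1 gene symbol). Of this list of 10 genes, 6 had lower and 4 higher means (median -0.05). Its mean log2 level was 6.15 and 6.12 in Cre+ mice, against 6.28 and 6.25 in Cre- mice. Nkg7 passed, at 8.88 and 8.91 in Cre+ mice against 10.03 and 9.85 in Cre- mice. Its difference of -1.04 (SE 0.09) was the largest of the list, so the mean level does not describe each gene. The 4 genes of the list with higher means were Klrb1c by 0.10, Klrk1 by 0.09, Klre1 by 0.04 and Ncr1 by 0.00.

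The mature T cell list (7 genes) had mean levels of 6.73 and 6.69 in Cre+ mice, against 6.73 and 6.75 in Cre- mice. The gamma-delta T cell list (5 genes) had lower means in 5 of 5, though Sox13 (-0.02) and Il17a (-0.01) were near 0 and overlapped between groups. Its mean levels were 7.19 and 7.15 in Cre+ mice, against 7.37 and 7.33 in Cre- mice. Its gene Blk passed, lower by -0.51 (SE 0.09) with an adjusted p = 0.0463 from limma over probe sets with 1 gene symbol. The myeloid list (9 genes) had mean levels of 6.58 and 6.77 in Cre+ mice, against 6.53 and 6.78 in Cre- mice. Of its genes, 5 had higher and 4 lower means (median 0.02). Lyz2 passed, higher by 1.04 (SE 0.18), while H2-Aa differed by -0.57 and Cd74 by -0.47, both with overlap between the groups. The B cell list (5 genes) had mean levels of 6.28 and 6.34 in Cre+ mice, against 6.35 and 6.63 in Cre- mice. The stroma list (6 genes) was at 7.01 and 7.02 in Cre+ mice, against 7.19 and 7.02 in Cre- mice, and the 1 measured erythroid gene, Alas2, differed by 0.02. The part of these markers in the differences of the receptor chains was not tested.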

How the data were processed

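Total RNA of sorted DN4 cells was labelled in 2 cycles and hybridised to Affymetrix mouse gene arrays. The authors deposited log2 values for each probe set and mouse, and RMA is the tool in the submitters' processing notes. The log2 scale was read from the values. Neither its version nor a filter or genome build is stated in the sources used here. The values were not normalized again, and 0 sample columns went unused.

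Names came from the platform annotation, where 21789 probe sets had 1 symbol, 1621 had several and 12146 were not listed, and the probe set with the highest mean stood for a gene. All 4 arrays entered a fit over all probe sets with limma 3.58.1 in R 4.3.3 (intensity trend, 2 residual and 2.99 prior degrees of freedom, Benjamini-Hochberg adjustment, threshold 0.05). The same model was fitted again to the probe sets with 1 symbol alone, which estimated the shared spread anew. Differences are the same in both fits, and SEs, intervals and unadjusted p-values are from the fit over all probe sets. Both fits were tested on simulated data. The tests over all probe sets and over those with 1 symbol are both given. With 2 against 2 mice the smallest p of an exact two-sided permutation test is 0.333, and limma's p-values depend on its sharing of the spread across probe sets. The genes, the lists and the second test were chosen with earlier results of these data known. Outside the 9 genes, the text names the 2 genes with the smallest p in each pathway list and any gene of these or of the marker lists that passed, 1 list is not reported here, and single markers were chosen after their values were seen. Sex was read from Xist and Kdm5d. The alternatives covered normalization, dim probe sets, the variance model, array weights, sex and each mouse left out.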

Additional observations from a re-analysis of the deposited data

How the results depend on the processing

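The direction of all 9 genes was the same under the 14 alternatives run. Over all probe sets 0 of the 9 genes passed in every alternative run except the test over probe sets with 1 gene symbol only. There 266 probe sets and 3 of the 9 genes passed, with Il12rb1 at -0.73 and Il12rb2 at -0.49. Over all probe sets the count of 0 became 10 with centred arrays, 25 above the 25th percentile of level and 80 above the median, and it stayed at 0 without each mouse; 2356 had an unadjusted p under 0.05 in limma. The next alternatives were chosen after seeing the data and repeat the test over probe sets with 1 gene symbol. The count of the 9 genes that passed was 0 without an intensity trend, where Il12rb1 (-0.73) and Il12rb2 (-0.49) lost their calls, and 5 with sex as a term. It ranged from 1 to 3 without each mouse, with the single gene being Il12rb1 without mouse 129 and Il12rb2 without mouse 135. Without each mouse in turn Il12rb1 ranged from -0.88 to -0.59 and Il12rb2 from -0.59 to -0.39. Lost calls among these were Il12rb1 at -0.59 (without mouse 135) and -0.60 (without mouse 137), and Il12rb2 at -0.46 (without mouse 129). Probe sets that passed numbered 130 without a trend, 565 with sex as a term, and 138 to 480 without each mouse. The gap between interleukin-12 and other receptor chains ranged from -0.72 (without mouse 131) to -0.45 (without mouse 137). No other probe set of the 9 genes has 1 gene symbol, so that alternative gave no value. The mouse numbers are not shared between the groups, so the labels pair no mice, and the fit with sex as a term is the only one that pairs them. The cause of these changes was not tested.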

Other observations

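Several of the receptor genes lie beside another receptor gene in RefSeq gene order. Il12rb2 has Il23r, the interleukin-23 receptor gene, as its next protein-coding gene. Il12rb2 differed by -0.49 and Il23r by 0.09, with Il23r between 4.51 and 4.71 in all mice, so the neighbour was dim. Il4ra has the interleukin-21 receptor gene Il21r beside it, with differences of -0.44 and -0.01. Ifngr2 lies beside Ifnar1, followed by Il10rb and Ifnar2, and these 4 genes of class II cytokine receptors differed by 0.05, -0.11, -0.37 and -0.19. Ifngr1 lies beside Il22ra2, followed by Il20ra, with differences of -0.19, 0.12 and -0.13. Leaving aside Il22ra2, whose p is not given here, 0 of the neighbours passed limma over probe sets with 1 gene symbol. The differences between neighbours were not tested.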
